A study of Mus musculus with 30 samples.

Results

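The genes of the cytoplasmic ribosomal proteins were followed in sequenced RNA of haematopoietic stem cells from young and old mice, unjoined or joined by parabiosis. Members were taken by symbol: Rpsa, Fau, Rplp0, Rplp1, Rplp2, and every Rpl or Rps symbol with a number and at most 1 of the letters a, l, x or y after it. This gave 81 of the 17562 genes in the count table, 49 of the large and 32 of the small subunit. Kinases of the Rps6k family do not belong to the set. Of the 81, 79 passed the filter on low counts and were tested. The other two, Rpl3l and Rpl10l, did not pass.

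The ribosome is built from ribosomal RNA and nearly equal amounts of each ribosomal protein, and it translates messenger RNA into protein. Many ribosomal protein messenger RNAs begin at a C followed by a run of C and T, the terminal oligopyrimidine motif, through which the kinase mTORC1 and the protein Larp1 set how strongly they are translated. Haematopoietic stem cells make protein slowly, and loss of 1 copy of a ribosomal protein gene causes Diamond-Blackfan anaemia, a failure of red cell production.

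All mice were male, of strain B6 or of its congenic partner BoyJ, which carries another form of Ptprc. Young mice were 8 to 12 weeks old, old B6 mice 22 months and old BoyJ mice 21 months. Conditions were merged over strain, and their names come from the label codes. YCNT is young unjoined (7 libraries, 3 B6 and 4 BoyJ), and OCNT is old unjoined (4 libraries, 3 B6 and 1 BoyJ). YISO is young joined to young (4 libraries, 2 of each strain), and OISO is old joined to old (6 libraries, 5 B6 and 1 BoyJ). YHET is young joined to old (2 libraries, all BoyJ), and OHET is old joined to young (4 libraries, all B6). OHETX is old B6 cells found lodged in young marrow after joining (2 libraries). YHET and OHET therefore differ in strain as well as in age, and their comparison rests on the strain term of the fit.

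The libraries were matched to columns through the code in the sample title. For 10 of the 29 libraries the description gives another sample than the title does, and for both OHETX libraries this is so. Each comparison is therefore also given from the 19 libraries whose 2 labels point to the same sample, and OHETX has no value there. Totals ran from 7659468 counts (OHETB6X replicate 1) to 30932977 (YB6CNT replicate 3). All 10 stem cell markers were detected in every condition, with median levels of 873 CPM (counts scaled to library depth) for Kit, 1030 for Hlf and 81.53 for Slamf1. Summed neutrophil and monocyte markers lay between 169.1 and 399.1 CPM in YCNT and between 235.2 and 368.6 CPM in OCNT, and they reached 1018 CPM in OISO, 915.8 CPM in OHET and 2910 CPM in OHETB6X replicate 1. Among lymphoid markers Cd79a and Pax5 had a median of 0, while Cd79b had 15.1 CPM and Ebf1 1.099 CPM, both above 0 in every library. Sorted RNA pools do not tell fewer cells of a type from less RNA per cell.

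Sequence around the annotated start showed how far the members share the oligopyrimidine motif. The windows below are from RefSeq on GRCm38.p6, on the strand of the gene, and hold 30 bases with the annotated start at base 16. Capitals mark a run at the start that is a C followed by at least 4 bases that are C or T. The first 3 lines are genes that were higher in old unjoined mice (below) and have such a run. The next 4 (Fau to Rps6) show long runs in members of other roles, then comes Rps27, which led the heterochronic comparison. The last 3 are genes higher in old unjoined mice that have none at the annotated start itself. In Rpl13a and Rps7 such a run begins within 10 bases after it. Rps15 and Rps24, also higher and without a run that begins at the start base, are not shown. In Rps24 such a run begins just before an annotated start and spans it.
Rps10, chr17:27635230-27635259, minus strand: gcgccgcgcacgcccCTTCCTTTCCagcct
Rps15a, chr7:118116133-118116162, minus strand: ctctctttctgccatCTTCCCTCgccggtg
Rps21, chr2:180257364-180257393, plus strand: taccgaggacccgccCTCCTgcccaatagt
Fau, chr19:6057932-6057961, plus strand: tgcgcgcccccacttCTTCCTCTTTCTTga
Rpl15, chr14:18270972-18271001, minus strand: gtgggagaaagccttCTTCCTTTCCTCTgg
Rpl35, chr2:39005117-39005146, minus strand: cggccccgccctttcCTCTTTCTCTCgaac
Rps6, chr4:86857353-86857382, minus strand: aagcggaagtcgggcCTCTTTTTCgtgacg
Rps27, chr3:90213634-90213663, minus strand: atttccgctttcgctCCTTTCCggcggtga
Rps3, chr7:99483695-99483724, minus strand: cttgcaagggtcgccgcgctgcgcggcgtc
Rps7, chr12:28635939-28635968, minus strand: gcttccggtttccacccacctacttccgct
Rpl13a, chr7:45128731-45128760, minus strand: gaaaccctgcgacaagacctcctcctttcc

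A start window was found for 61 members. Of these, 14 (23.0%) had the run exactly at an annotated start, against 3.01% of 27025 genes with a window and 0 of 69 mitochondrial ribosomal protein genes. Allowing a start within 10 bases raised the share to 63.9% of members and 34.4% of all genes. The search read only the gene's own strand, and a match is a description of letters, not of a used start. Some members, among them Rps21, Rps19, Rps24 and Rpl35a, have more than 1 annotated start. Rps21 and Rpl35a have the run at only 1 of theirs, and the window with the run is shown for Rps21.

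Ribosomal protein genes were among the most abundant transcripts. Scaled to transcript length and depth (TPM), they took between 15.51% and 20.07% of a library's total (mean 17.23%), and 56 of them were among the 100 most abundant genes. Among the highest levels were those of Rps24 (7485 ± 616.3 TPM, SD, n = 29), Rps29, Rpl31 and Rpl13. Among members of the core ribosome the lowest were Rpl35 (246.8 ± 31.09 TPM), Rpl27 (322.2 ± 35.62 TPM), Rpl10 (429.8 ± 62.52 TPM), the last large-subunit protein to be added, and Rpl22 (440.2 ± 43.79 TPM). Lengths are medians over annotated transcripts, and a gene with long minor transcripts, such as Rps20, gets too low a value per length.

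The tissue-restricted copies were near the floor. Rpl39l, a copy best known from testis, was at 0.7091 ± 0.5665 TPM and made up 0.02112% of its pair with Rpl39. Rpl10l, another testis copy, never had more than 3 counts in a library, which is the floor used here. Rpl3l, the heart and skeletal muscle form of Rpl3, was at 0 in 23 libraries, and 30 of its 41 counts came from OHETB6X replicate 2 (1.839 CPM). Rps27l, a copy induced by p53, was at 160.3 ± 38.74 TPM and at 3.994 ± 1.057% of its pair with Rps27.

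Among copies outside the symbol rule, Rpl22l1 exceeded its partner in TPM only. It made up 58.66 ± 3.943% of the summed TPM of Rpl22 and Rpl22l1 (n = 29), with a range from 50.99% to 66.35%. In CPM, which is not scaled to length, Rpl22l1 was lower, at 155.5 to 292.9 CPM against 468.3 to 822.7 CPM for Rpl22. The order in TPM therefore rests on the annotated transcript lengths. Rpl36al was at 17.15 ± 1.994% of its pair with Rpl36a. Rps27rt was at 27.95 ± 3.749% of its pair with Rps27, and since the copies are near identical, reads can be split between them and values of Rps27 are uncertain.

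**Figure D1:**
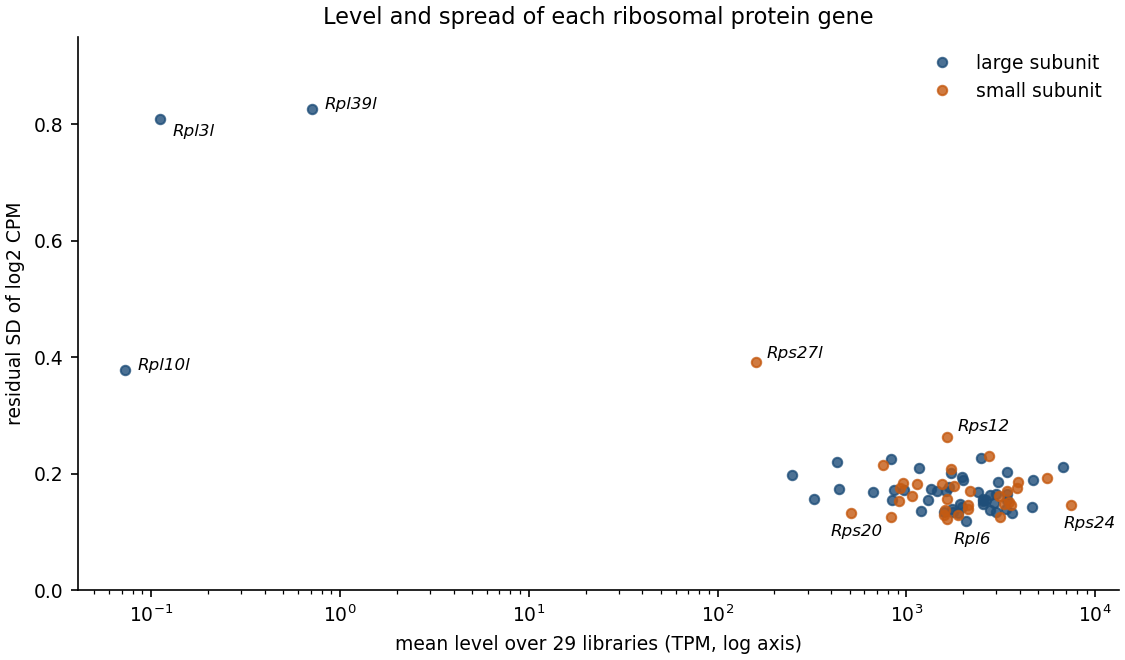
Mean level of each member in TPM (log axis) against its spread, the SD of log2 CPM over 29 libraries after removal of condition and strain. Most members lie above 500 TPM with a spread near the median of 0.1643, and Rpl39l, Rpl3l, Rpl10l and Rps27l stand apart at low level.

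Members varied little and moved together. After condition and strain were removed, the median SD of log2 CPM was 0.1643 over the 79 tested members, against 0.5183 over all genes tested. The 368 genes tested at or above the 10th percentile of member levels had a median of 0.1639. They include most members themselves and have no upper limit of level. A small spread was thus common among abundant genes, but the 2 medians do not compare members with other genes. The steadiest members were Rpl6 (0.1195), Rps3 (0.1229), Rps13 and Rps25 (both 0.1258) and Rps7 (0.129). The most variable were Rpl39l (0.8268), Rpl3l (0.8083), Rps27l (0.3919), Rpl10l (0.3779) and Rps12 (0.2626), of which Rps12 alone is a core protein at high level. With condition and strain left in, a member's log2 CPM correlated over the 29 libraries with the median of the other members at r = 0.768. This is a median over members, a description in which all members share library and depth, and for Rps12 r was 0.273. With condition and strain removed, the median r between pairs of the 73 tested members above 500 TPM was 0.525. The balance of RNA counts between the subunits hardly moved: the ratio of large to small subunit counts ran from 1.459 to 1.556 (1.508 ± 0.02452, n = 29).

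**Figure D2:**
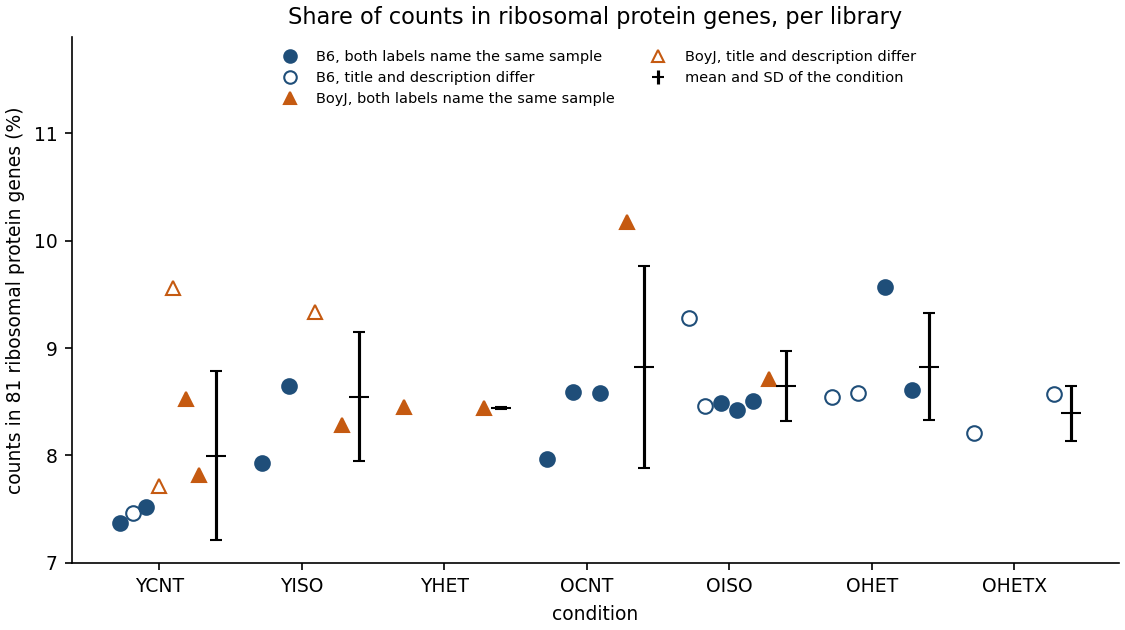
Share of each library's counts that fell on the 81 members, in percent, by condition, with the mean as a bar and strain by symbol. The axis starts at 7; the 3 B6 libraries of YCNT are the lowest of all, and OBJCNT replicate 1 is the highest.

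The share of counts on the members differed between single libraries more than between conditions. In YCNT the 3 B6 libraries gave 7.37%, 7.464% and 7.522%, and the 4 BoyJ libraries 7.715%, 9.556%, 8.522% and 7.82%. In OCNT the B6 libraries gave 7.967%, 8.592% and 8.583%, and the BoyJ library gave 10.17%. The B6 libraries of YCNT were thus the lowest of all 29, and the BoyJ library of OCNT the highest. In the smallest library, OHETB6X replicate 1, the 95% Wilson interval of the share of 8.213% ran from 8.194% to 8.2328%, for counting error only, so counting noise was far below the differences between libraries.

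Mean shares were 7.996 ± 0.7874% in YCNT (n = 7) and 8.828 ± 0.9413% in OCNT (n = 4), so their ranges overlapped. Joined young mice were at 8.549 ± 0.5998% in YISO (n = 4) and 8.445 ± 0.009192% in YHET (n = 2). Joined old mice were at 8.646 ± 0.3271% in OISO (n = 6), 8.825 ± 0.4983% in OHET (n = 4) and 8.392 ± 0.2539% in OHETX (n = 2). In the order of these means each gap between neighbours was smaller than the larger of the 2 SDs, and the gap from YCNT to OHETX was above the SD of OHETX. Without the 10 libraries of conflicting labels, the means were 7.808% in YCNT, 8.287% in YISO, 8.446% in YHET, 8.534% in OISO, 8.828% in OCNT and 9.09% in OHET. With columns matched by description, YCNT was at 8.341%, YISO at 8.144% and OHET at 9.049%.

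Old against young unjoined mice was the comparison in which members passed the test. Of 79 members 8 were called higher in OCNT than in YCNT by edgeR's quasi-likelihood test at a Benjamini-Hochberg adjusted p under 0.05 over all 16068 genes tested, and 0 lower. They are Rps3, Rps21, Rps10, Rps15a, Rps7, Rps15, Rps24 and Rpl13a, so 7 of the 8 belong to the small subunit. In the background 2.11% of all genes tested were called, and 1.59% were called higher. The sign was positive for 77 of 79 members, with a median log2 fold change of 0.24 (all genes -0.02), and the medians of the subunits were near each other (0.24 large, 0.26 small). At an unadjusted p under 0.05 there were 49 members, against 11.7% of all genes.

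Rps3, at the entry of the messenger RNA channel of the small subunit, had 919.6, 872.7 and 784.0 CPM in the B6 libraries of YCNT and 1041, 1165, 1156 and 957.7 CPM in the BoyJ ones. In OCNT it had 1158, 1194 and 1208 CPM in B6 and 1424 CPM in BoyJ. Within each strain every old library was above every young one, and over the merged groups they overlapped by a narrow margin. The log2 fold change was 0.40 (SE 0.0829, edgeR adjusted p = 0.00618), a ratio of 1.321.

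Rps21, a small-subunit protein, had 357.3, 507.1 and 437.4 CPM in the B6 libraries of OCNT and 584.4 CPM in the BoyJ one, against 293.8 to 480.2 CPM (median 335.0) in YCNT. Its log2 fold change was 0.49 (SE 0.1124, edgeR adjusted p = 0.01335), and it was the largest of the 8. Rps10, which is mutated in some families with Diamond-Blackfan anaemia, had 719.9, 913.6, 812.1 and 986.3 CPM in OCNT, against 562.0 to 951.1 CPM (median 615.4) in YCNT. Its log2 fold change was 0.43 (SE 0.1003, edgeR adjusted p = 0.01544). In both genes the highest young library reached into the old range.

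Rps7 and Rps24 are Diamond-Blackfan anaemia genes as well. Rps7 had 935.9, 1103, 1061 and 1128 CPM in OCNT and 701.6 to 975.6 CPM (median 826.8) in YCNT, and its log2 fold change was 0.36 (SE 0.0857, edgeR adjusted p = 0.01953). Rps24 had 2485, 3110, 2820 and 3307 CPM in OCNT and 1999 to 3082 CPM (median 2334) in YCNT, and its log2 fold change was 0.34 (SE 0.092, edgeR adjusted p = 0.04327). In Rps7 only the lowest old library lay within the young range, and in Rps24 only 2 old libraries lay above it.

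Rps15a and Rps15 are small-subunit proteins, and Rpl13a is a large-subunit protein also known as a part of a complex that silences inflammatory messenger RNAs. Rps15a had 1306, 1637, 1466 and 1938 CPM in OCNT and 1104 to 1551 CPM (median 1230) in YCNT, and its log2 fold change was 0.39 (SE 0.0932, edgeR adjusted p = 0.01953). Rps15 had 380.3, 454.6, 444.1 and 584.3 CPM in OCNT and 305.4 to 504.9 CPM (median 324.0) in YCNT, and its log2 fold change was 0.44 (SE 0.1137, edgeR adjusted p = 0.03311). Rpl13a had 536.9, 578.4, 589.2 and 726.2 CPM in OCNT and 397.8 to 636.3 CPM (median 440.9) in YCNT, and its log2 fold change was 0.39 (SE 0.1066, edgeR adjusted p = 0.04627). The BoyJ library was the highest old one in all 8 genes.

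**Figure D3:**
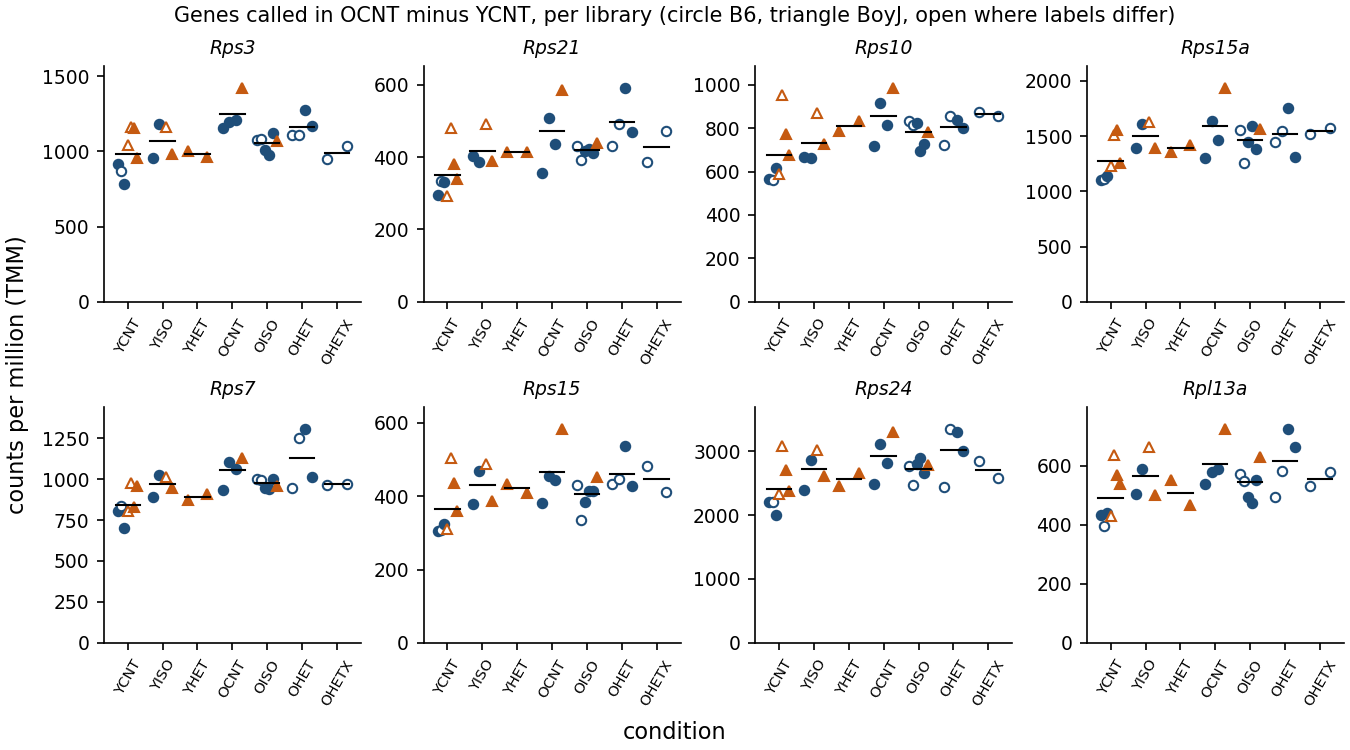
Level of the 8 called genes in each library of the 7 conditions, in CPM, with strain by symbol. For each gene OBJCNT replicate 1 is the highest library of YCNT and OCNT, and these merged groups overlap. In Rps21, Rps7 and Rps24 an OHET library lies higher still.

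The 8 calls depended on 1 library. Without OBJCNT replicate 1, the only BoyJ library of OCNT, 0 members were called (243 genes of all kinds were), and the median over the 79 members dropped from 0.24 to 0.16. The log2 fold changes of the 8 were then between 0.32 and 0.42, and the edgeR adjusted p ran from 0.0503 (Rps3) to 0.239 (Rps15). In that library the median member lay 0.364 above its mean on the log2 scale, and 44 of 79 members had their highest value of all libraries there. In the 3 B6 libraries of YCNT the median member lay below its mean, at -0.254, -0.255 and -0.308. Without YBJCNT replicate 2, young by its title and with high values, 17 members were called (348 genes of all kinds were). The description of that library names an old B6 sample, OHETB6 replicate 1.

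Within B6 alone, 36 of 79 members were higher in each of the 3 OCNT libraries than in each of the 3 YCNT libraries, where 11.0% of all genes tested were, and 0 members were lower in this way. A fit of the B6 libraries only called Rps3 (0.46, edgeR adjusted p = 0.02137) and Rps10 (0.48, adjusted p = 0.02137). From the 19 libraries of agreeing labels, 5 members were called: Rps3, Rps10, Rps21, the stalk gene Rplp0 (0.41, adjusted p = 0.0117) and Rpl7 (0.37, adjusted p = 0.04065). With columns matched by description 0 were called and the median was 0.14. Over all 39 settings Rps3 was called in 37, Rps21 and Rps10 in 34 each and Rpl13a in 12, and each of the 8 stayed positive in all 39.

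Members just outside the threshold were Rpl36 (adjusted p = 0.0523), Rpl12 (0.0593), Rplp0 (log2 fold change 0.31, adjusted p = 0.0605) and Rpl3 (0.35, adjusted p = 0.0605). Of the stalk that recruits elongation factors, Rplp1 (0.20, adjusted p = 0.436) and Rplp2 (0.20, adjusted p = 0.417) were not called. Rpl5 (0.26, adjusted p = 0.1275) and Rpl11 (0.28, adjusted p = 0.194), which bind Mdm2 when ribosome assembly fails and so free p53, were not called either. Rps19, the gene most often mutated in Diamond-Blackfan anaemia, was at 0.24 (adjusted p = 0.246), and Rps14, lost in a myelodysplastic syndrome, at 0.35 (adjusted p = 0.19).

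Further members of known role did not pass in OCNT against YCNT. Rps6, the target of the S6 kinases, was at 0.21 (adjusted p = 0.344). Rpl10 was at 0.40 (adjusted p = 0.138), Rpl22 at 0.17 (0.594) and Rpl38, which aids translation of Hox messenger RNAs in the embryo, at 0.24 (0.378). Rps4x was at 0.19 (0.526), Rpsa at 0.21 (0.465), and Fau, whose product is cut from a ubiquitin-like fusion, at 0.33 (0.262). Rpl39 was at 0.23 (0.238), Rps27 at 0.29 (0.231) and Rpl41 at 0.13 (0.775). The 2 members with a negative sign were the copies Rps27l (-0.15, adjusted p = 0.889) and Rpl39l (-0.07, adjusted p = 0.991).

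Genes that work with the ribosomal proteins moved unevenly in OCNT against YCNT. Of 7 ribosomal protein genes that the symbol rule leaves out, 2 rose: Rack1, the scaffold on the small subunit (0.38, edgeR adjusted p = 0.01276), and Rpl22l1 (0.45, adjusted p = 0.04131). Of 13 translation factors and other genes listed with them, 0 were called (6 at an unadjusted p under 0.05), with a median of 0.20, for example Eef2 at 0.35 (adjusted p = 0.0769). Of 38 ribosome biogenesis genes 0 were called (1 at an unadjusted p under 0.05) and the median was -0.12. Of 78 mitochondrial ribosomal proteins 0 were called (3 at an unadjusted p under 0.05), with a median of -0.05. Of 16 mTORC1 and MYC genes 0 were called (3 at an unadjusted p under 0.05), with a median of 0.02. Of 15 members listed for Diamond-Blackfan anaemia, a list that need not be complete, 3 rose (Rps7, Rps10 and Rps24). Of all genes tested 1.59% were called higher. The median of the 15 was 0.26.

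Cell cycle and immediate early genes moved between the same groups. Of 25 cell cycle genes 7 fell, among them Cdk1 (-0.99, edgeR adjusted p = 0.00698), and the 25 took 0.5346 ± 0.03892% of counts in YCNT (n = 7) and 0.3054 ± 0.06923% in OCNT (n = 4). Of 20 immediate early genes, which respond fast to stimuli and to tissue handling, 8 rose, among them Klf6 and Junb. Their share was 0.1031 ± 0.03043% in YCNT, 0.4568% to 0.5053% in the B6 libraries of OCNT and 0.09152% in OBJCNT replicate 1. The library with the highest member levels thus had no raised immediate early share. The part of either list in the member result was not tested.

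Between old and young mice in isochronic pairs the member median lay close to 0. In OISO against YISO 0 of 79 members were called by edgeR, DESeq2 or limma-voom, against 1.45% of all genes by edgeR. At an unadjusted p under 0.05 there was 1 member, against 13.1% of all genes. The median was 0.04 (all genes 0.00) with 54 members positive, and it was 0.02 over the 19 libraries of agreeing labels and -0.03 without the strain term. By description it was 0.10, as it was without YISOB6 replicate 2. Neutrophil and monocyte markers summed to 273.0 to 1018 CPM in OISO and 208.5 to 366.1 CPM in YISO, with 1 of 10 called (higher), and their part in the member values was not tested. The smallest p were those of Rpl13 (0.21, SE 0.0947, adjusted p = 0.308), which had 2564 ± 219.5 CPM in OISO (n = 6) and 2342 ± 229.2 CPM in YISO (n = 4), then Rpl6 and Rps10. Among negative values they were Rpl41 (-0.16), Rpsa and Rpl34.

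The difference between the age effects was itself fitted. The effect in isochronic mice minus that in unjoined mice was negative for 76 of 79 members, with a median of -0.21 (all genes 0.02), and 0 members were called by edgeR (0 of all genes, 0%), the only tool run on it. There were 13 members at an unadjusted p under 0.05, against 5.18% of all genes. Rps3 had the smallest p (-0.36, adjusted p = 0.8985), followed by Rpl34 (-0.44) and Rps15 (-0.45). No member's age effect was therefore shown to differ between joined and unjoined mice.

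**Figure D4:**
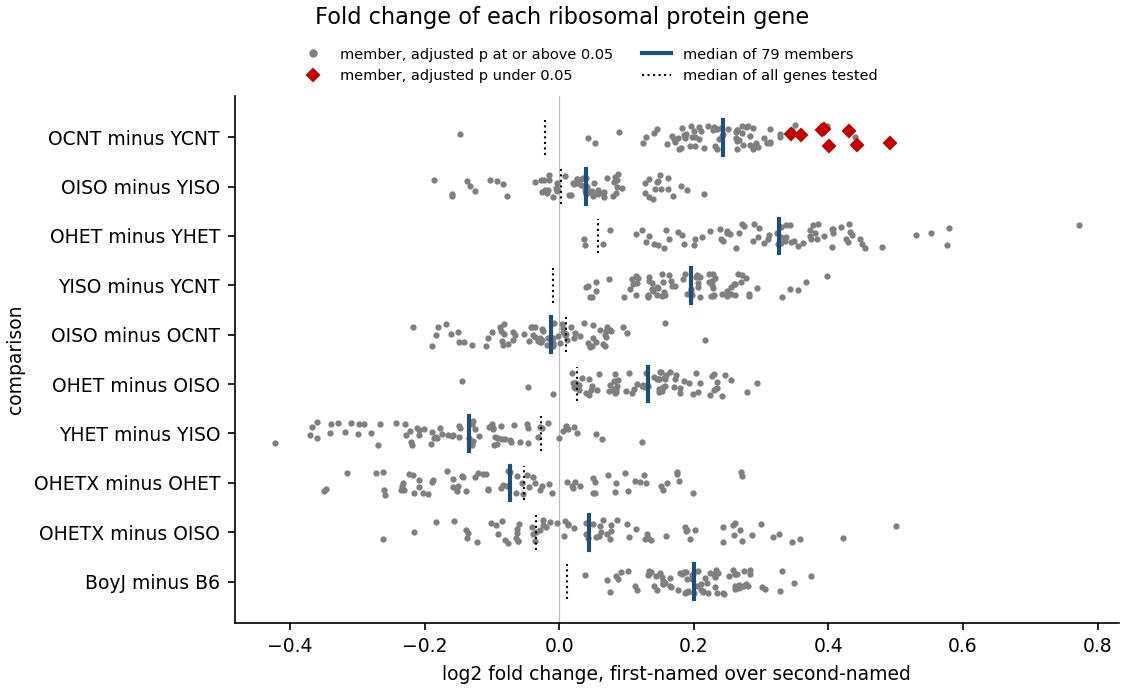
Log2 fold change of each tested member (points) in each comparison, with the median of the 79 members (solid line) and of all genes tested (dotted line). Points of Rpl39l are not drawn; the 8 filled diamonds in OCNT against YCNT are the called members.

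In heterochronic pairs all 79 members had a positive sign for OHET against YHET, with a median of 0.33 (all genes 0.06). None was called by edgeR, against 0.118% of all genes, and 37 had an unadjusted p under 0.05, against 9.41% of all genes. DESeq2 called 1, Rps27 (0.75, adjusted p = 0.009757), among 189 genes of all kinds, and limma-voom called 0 members among 6 genes. Rps27, a zinc-finger protein of the small subunit, had 987.5, 1294, 1525 and 1250 CPM in OHET and 1002 and 861.6 CPM in YHET. Its log2 fold change was 0.77 (SE 0.1782, edgeR adjusted p = 0.0729), and 1 OHET library lay within the YHET range. Since YHET is all BoyJ and OHET all B6, this value includes the strain term, which was 0.33 for Rps27 (BoyJ over B6). The difference in the CPM listed is therefore smaller than the fitted value. Rps27rt took 32.83 ± 3.373% of its pair with Rps27 in YHET (n = 2) and 26.48 ± 1.412% in OHET (n = 4). Rps27rt itself was at 425.5 ± 19.72 CPM in YHET and 429.4 ± 89.71 CPM in OHET, so the lower share in OHET went with the higher level of Rps27.

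Rps7 (0.45, adjusted p = 0.244) and Rps3 (0.43, adjusted p = 0.2545) had the next smallest p. Rps3 had 1110, 1106, 1278 and 1168 CPM in OHET and 1006 and 963.5 CPM in YHET, so these libraries did not overlap. Rps7 had 947.1, 1254, 1308 and 1012 CPM in OHET and 869.8 and 906.3 CPM in YHET, and these did not overlap either. In all, 15 members were higher in every OHET library than in both YHET libraries, where 5.76% of all genes were.

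The size of this difference depended on the strain term. Without that term the median fell to 0.10, and with only the OHET and YHET libraries in the fit it was 0.09. Age and strain cannot be told apart within these groups, since YHET holds BoyJ alone and OHET holds B6 alone. From the 19 libraries of agreeing labels the median was 0.33, and by description it was 0.18. Without OHETB6 replicate 1, Rps27 was called (0.86, edgeR adjusted p = 0.01534). The description of that library names a young BoyJ sample.

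Strain itself went with higher member levels in BoyJ. In the strain term of the fit, BoyJ against B6, 78 of 79 members were positive, with a median of 0.20 (all genes 0.01). That term rests on the conditions that hold both strains, YCNT, YISO, OCNT and OISO. OCNT and OISO hold 1 BoyJ library each, and YHET, OHET and OHETX do not inform it. By edgeR, DESeq2 and limma-voom 0 members were called, against 0.0124% of all genes by edgeR, while 60 had an unadjusted p under 0.05, against 6.78% of all genes. Rpl28 had the smallest p (0.28, adjusted p = 0.296), then Rpl38 (0.35, adjusted p = 0.318) and Rps27 (0.33, adjusted p = 0.427), and Rpl39l was the negative member (-0.30).

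Young unjoined mice show the strain difference within 1 condition. Rpl28 had 828.2 ± 25.76 CPM in YB6CNT (n = 3) and 1028 ± 150.5 CPM in YBJCNT (n = 4), and Rps27 had 804.7 ± 62.86 and 1039 ± 85.12 CPM. In all, 18 members were higher in every YBJCNT library than in every YB6CNT library, where 3.12% of all genes were, and 0 were lower. The BoyJ libraries were not uniform, since YBJCNT replicate 2 lay 0.206 above the members' mean on the log2 scale, and replicates 1 and 4 lay at -0.181 and -0.185. The labels of YBJCNT replicates 1 and 2 and of YB6CNT replicate 2 conflict. From the 19 libraries the median was 0.17, and by description 0.09.

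Joining young mice to young partners gave positive signs for all 79 members in YISO against YCNT, with a median of 0.20 (all genes -0.01). By edgeR, DESeq2 and limma-voom 0 were called, against 0% of all genes by edgeR, and 30 had an unadjusted p under 0.05, against 10.2% of all genes. The smallest p belonged to Rpl39 (0.34, adjusted p = 0.256), at the peptide exit tunnel, with 1598 ± 133.2 CPM in YISO (n = 4) and 1282 ± 158.5 CPM in YCNT (n = 7). Rpl34 (0.40, adjusted p = 0.258) and Rps19 (0.33, adjusted p = 0.258) followed, and Rps19 had 1019 ± 67.32 against 819.2 ± 108.9 CPM. The B6 libraries alone gave a median of 0.30 and 1 called member, Rpl4 (0.57, adjusted p = 0.0403). The median was 0.20 over the 19 libraries and 0.03 by description.

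Joining old mice to old partners gave a member median near 0. In OISO against OCNT the median was -0.01 (all genes 0.01), 32 members were positive and 0 were called by edgeR, DESeq2 or limma-voom (0% of all genes by edgeR). At an unadjusted p under 0.05 there was 1 member, against 4.21% of all genes. The smallest p was that of Rps3 (-0.22, adjusted p = 0.987), then Rpl9 and Rpl7, and among positive values Rpl29 (0.22). The sign of the median was not stable: it was 0.08 in B6 alone, 0.06 without OBJCNT replicate 1, -0.08 without OB6CNT replicate 1 and -0.05 over the 19 libraries. The neutrophil and monocyte markers had positive values for 9 of 10 in this comparison, with a median of 3.66 and 0 called (3 at an unadjusted p under 0.05), and their part was not tested.

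Old cells with a young instead of an old partner had a median of 0.13 (all genes 0.03) in OHET against OISO, with 76 members positive. By edgeR, DESeq2 and limma-voom 0 were called (0% of all genes by edgeR), and 11 had an unadjusted p under 0.05, against 8.51% of all genes. Rps7 (0.23, adjusted p = 0.488), Rpl35a and Rps21 had the smallest p, and Rpl10 (-0.15) led the negative ones. Without OHETB6 replicate 3, in which 76 of 79 members lay above their mean, the median was 0.07. From the 19 libraries it was 0.18. Of the neutrophil and monocyte markers 5 of 10 were positive, with a median of 0.01.

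Young cells with an old instead of a young partner had mostly negative values. In YHET against YISO 11 of 79 members were positive, with a median of -0.13 (all genes -0.03), and 0 were called by edgeR, DESeq2 or limma-voom (0% of all genes by edgeR). At an unadjusted p under 0.05 there were 9 members, against 5.99% of all genes. Rpl39 (-0.37, adjusted p = 0.765), Rps19 (-0.37) and Rps27 (-0.42) had the smallest p, and Rpl39 had 1338 CPM in 1 YHET library and 1339 CPM in the other. The median was -0.11 over the 19 libraries, -0.04 without the strain term, -0.21 without YISOBJ replicate 2 and 0.01 by description. Since YHET stands in both this comparison and OHET against YHET, the values are not independent of each other.

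Old cells lodged in young marrow gave no called member against either group of old cells. In OHETX against OHET the median was -0.07 (all genes -0.05), 0 members were called by edgeR, DESeq2 or limma-voom (0.218% of all genes by edgeR) and 5 had an unadjusted p under 0.05 (13.6% of all genes). Rpl35a (-0.35, adjusted p = 0.2065) had 485.1 and 504.4 CPM in OHETX and 629.0 ± 91.75 CPM in OHET (n = 4), and Rpl19 (-0.35) and Rpl12 followed. In OHETX against OISO the median was 0.04 (all genes -0.04), 0 members were called by the same tools (0.187% of all genes by edgeR) and 8 had an unadjusted p under 0.05 (13.0% of all genes).

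Against OISO the smallest p was that of Rps2 (0.33, adjusted p = 0.247), a protein of the messenger RNA channel, with 680.6 and 807.7 CPM in OHETX and 611.4 ± 53.97 CPM in OISO (n = 6). Rpl35 (0.42) followed, and Rpl19 (-0.26) led the negative ones. Both OHETX libraries have conflicting labels. By description the condition has 1 library, and the medians were -0.38 against OHET and -0.27 against OISO. Without OHETB6X replicate 1, the library with high neutrophil and monocyte markers, the medians were -0.04 and 0.07. That library also had the highest erythroid (0.004974% of counts) and lymphoid (0.005601%) marker shares of all libraries. Its immediate early share was 0.4626%, against 0.1419% in OHETB6X replicate 2. The part of these shares in the member values was not tested.

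Members with and without the oligopyrimidine run at the annotated start were set side by side. In OCNT against YCNT the median was 0.26 for the 14 members with a run and 0.26 for 45 tested members with a window but no run there. Within 10 bases of the start 39 of the 61 members had a run. Many of the 45 thus hold one nearby, and the split does not separate members with the motif from members without it. In OHET against YHET the medians were 0.34 and 0.32, and in YISO against YCNT they were 0.19 and 0.20. The OHETX comparisons stood further apart, at 0.02 with and -0.09 without a run against OHET, and at 0.09 and 0.01 against OISO. Across the 79 members the correlation of the fold change with transcript length ran from r = -0.264 (rho = -0.423) in OHET against OISO to r = 0.171 (rho = 0.22) in the difference of age effects. These are descriptions, since members share libraries.

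The authors deposited 11 comparisons, none of OCNT with YCNT. No member (0 in each) of the authors' deposited tables passed an adjusted p of 0.05. In the authors' deposited table of YHET over OHET all 81 members had a negative log2 fold change, with a median of -0.28 and a lowest adjusted p of 0.1711. In the authors' deposited table of YCNT over YISO 72 of 81 were negative, with a median of -0.11 and a lowest adjusted p of 0.2119. In the authors' deposited table of YISO over OISO 68 were negative, with a median of -0.11.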

How the data were processed

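The authors deposited whole-number estimated counts per gene. Salmon, DESeq2, FastQC and MultiQC and build GRCm38 are listed, with no version, in the submitters' processing notes. The authors also deposited 11 tables with log2 fold changes, their standard errors, test scores and p-values. Member results were read from their log2 values and adjusted p-values. Mean counts, test scores and standard errors were read only to check how columns match samples.

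Labels give 30 samples. Columns were matched by the code in the title (29 libraries), 1 sample has no column by title, and 1 column was not used. For 10 libraries title and description differ. Both matchings were compared with the authors' deposited tables over 9271 genes of higher mean count. The authors' value for a gene was the test score times the standard error of its log2 fold change. Over 11 comparisons the median r across these genes was 0.776 by title and 0.493 by description.

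The rounded counts were fitted with edgeR 4.0.16 under R 4.3.3 (robust quasi-likelihood F-test, TMM, filterByExpr by condition) in 1 fit of 7 conditions with a strain term, 21 residual degrees of freedom and 16068 genes. Calls were made at an adjusted p (Benjamini-Hochberg) under 0.05. The SE is the log2 fold change over the root of F. CPM uses TMM factors, and TPM uses median annotated transcript lengths. Alternatives were DESeq2 1.42.0, limma 3.58.1 (voom with quality weights), RLE, TMM without the members, no filter, no strain term, B6 only, only the conditions compared, both other label matchings and leaving out each library.

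Named genes are the called members (12 or fewer), the 3 smallest p per direction where under 3 were called, a panel of known genes, the extremes of level and spread (5 each), and per list up to 4 genes. Some genes that this rule names are not reported here. The members and lists were chosen with earlier results of these data known. The start-site search, the difference of age effects, the counts of groups that do not overlap, and the TPM, spread and copy descriptions were added after the data were seen. Labels name neither the partners of joined mice nor separate animals per library, so p-values measure the spread between these samples, which may be technical. Replicate libraries differed by at least 21.92 chi-square units per degree of freedom, so none was a repeat within sampling noise. Depth was 7659468 to 30932977 counts. Shares have 95% Wilson intervals, and the floor is 3 counts.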

Additional observations from a re-analysis of the deposited data

Results flagged for a closer look

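In groups of 4 to 10 libraries, 12 of 153 checks found a library whose gap to the nearest other was large for the range of its group (Dixon's criterion at 95%, which chance alone meets in about 5% of groups). OHETB6 replicate 3 stood apart in its member share, at 9.571% against 8.54% to 8.61% in the other OHET libraries, in Rps15 at 536.9 CPM (others 428.9 to 446.4) and in Rps4x at 3017 CPM (others 2333 to 2413). OISOB6 replicate 1 stood apart in its member share, at 9.28% against 8.423% to 8.716%, in Rpl39l at 0.8478 CPM (others 0.1117 to 0.3363) and in Rpl3l at 0.03391 CPM, where the other OISO libraries were at 0. That Rpl3l value is a single count, below the floor of 3 counts. The labels of OISOB6 replicate 1 conflict.

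OBJCNT replicate 1 had Rps4x at 3356 CPM, with 2360 to 2514 in the other OCNT libraries, and OB6CNT replicate 3 had Rpl3 at 1744 CPM, with 1536 to 1556 in the others. YBJCNT replicate 2 had Rplp0 at 1289 CPM (others 814.8 to 925.8), and YBJCNT replicate 3 had Rpl3l at 0.2467 CPM (others up to 0.08776). YISOBJ replicate 1 had Rps21 at 492.7 CPM (others 385.4 to 402.1), and OISOB6 replicate 4 had Rplp2 at 689.3 CPM, below the 778.3 to 823.9 of the others. The labels of YBJCNT replicate 2 and YISOBJ replicate 1 conflict.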

How the results depend on the processing

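The count of members called in OCNT against YCNT (8) was 5 from the 19 libraries of agreeing labels (221 genes of all kinds, 339 as reported), 0 by description (129), 25 with limma-voom (1154), 2 without the strain term (367) and 2 in B6 alone (131). It was 10 with DESeq2, 6 with RLE, 8 with TMM without the members, 7 without the filter and 9 with only the conditions compared. Leaving out 1 library gave 0 (without OBJCNT replicate 1) to 17 (without YBJCNT replicate 2). It gave 2 without OB6CNT replicate 2 or 3, 3 without YB6CNT replicate 3, 4 without YB6CNT replicate 1 or 2, and 5 without YBJCNT replicate 1 or 4. In OHET against YHET DESeq2 called 1, and leaving out a library gave 0 to 1. In YISO against YCNT B6 alone called 1. All other comparisons kept a count of 0 under every setting that could be fitted. Of 9348 values of named members under the alternatives, 263 changed sign without being called, 89 lost and 15 gained a call. Reversed calls (0) say little, since 8 of the 244 pairs of named member and comparison were called. The OHETX comparisons could not be fitted on the 19 libraries, nor OHET and YHET together in B6 alone. No paired analysis was possible because the replicate numbers are in accession order and pair no samples. Depth did not limit the core members, but Rpl3l, Rpl10l and Rpl39l lie near the floor of 3 counts.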
